A study of Mus musculus with 5 samples.

Results

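The platelet-derived growth factor (PDGF) genes of the mouse, 4 ligand genes (Pdgfa, Pdgfb, Pdgfc and Pdgfd), 2 receptor genes (Pdgfra and Pdgfrb) and the receptor-like gene Pdgfrl, were read by symbol from the deposited table, which held 23337 genes, and all 7 were found. The family was chosen because Pdgfra was far lower in the libraries labelled KO, so the Pdgfra difference is described here without a test. The other 6 members belong by name. Poly-T selected RNA had been sequenced from mouse embryonic fibroblasts of strain 129Sv immortalized with SV40T, the viral T antigen, under normal conditions, with 3 libraries of genotype wild type (WT) and 2 of genotype SIRT3 -/- (KO). SIRT3 is a deacetylase of mitochondria, and the study's title speaks of a small molecule screen and of de novo nucleotide synthesis in cells without it. All 5 libraries shared the immortalization, the strain and the growth conditions. Separate lines, cultures or embryos are not named in the labels, so p-values here cover the spread among the 5 libraries alone, and that spread may be technical.

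PDGFs are dimeric growth factors that drive division and migration of mesenchymal cells. The A and B chains are cut by furin-like proteases inside the cell, whereas the C and D chains carry a CUB domain that is removed outside it. The alpha receptor binds the A, B and C chains and the beta receptor the B and D chains. Both are tyrosine kinases that phosphorylate each other in a dimer and then bind adaptors, phosphoinositide 3-kinase, phospholipase C gamma, SRC kinases and RAS regulators. Fibroblasts usually carry both receptors. Pdgfra is widely used to mark them, while Pdgfrb is also prominent in pericytes and smooth muscle.

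The libraries held between 33473103 and 41758681 recovered reads. Sirt3, the targeted gene, was higher, not lower, in the libraries labelled KO: WT replicates 1 to 3 held 169.7, 149 and 118 normalized read counts (reads divided by the size factor of the library), and the KO replicates 200.4 and 217 (log2 fold change 0.53, limma, adjusted p = 0.00445). The 91 tested genes with starts within 5 Mb of Sirt3 had a median log2 fold change of 0.31. With that local median removed, Sirt3 stood at 0.22 and its call was lost. Values per gene do not separate exons, so a deleted part of the gene could not be seen. Whether labels were exchanged was not tested, and an exchange would turn every direction given here. Directions are therefore given between libraries as labelled. Of 13062 genes tested with limma, 65.3% passed a Benjamini-Hochberg adjusted p under 0.05 (32.6% higher and 32.6% lower with the KO label), and the groups did not overlap for 75.4% (37.8% higher and 37.6% lower). A call for a member therefore says only that it did what most genes did.

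The DNA just before the annotated start is shown for Pdgfra, the member that differed most, and for Pdgfc, the ligand gene with like levels in both groups. Each is the 250 bases before a RefSeq start on the plus strand of GRCm38.p6 (mm10), at chr5:75152001-75152250 for Pdgfra and chr3:81036166-81036415 for Pdgfc, and capitals mark CG dinucleotides.
Pdgfra: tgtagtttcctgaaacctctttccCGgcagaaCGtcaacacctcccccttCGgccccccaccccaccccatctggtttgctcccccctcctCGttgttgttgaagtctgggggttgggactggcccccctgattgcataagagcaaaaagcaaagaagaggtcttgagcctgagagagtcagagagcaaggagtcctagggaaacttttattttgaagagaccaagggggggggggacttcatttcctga
Pdgfc: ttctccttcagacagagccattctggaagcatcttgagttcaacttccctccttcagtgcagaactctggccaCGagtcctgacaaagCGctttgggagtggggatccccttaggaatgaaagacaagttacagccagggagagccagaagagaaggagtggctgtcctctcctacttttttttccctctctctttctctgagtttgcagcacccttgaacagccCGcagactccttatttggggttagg
No GENCODE M21 exon overlapped either window, although the RefSeq entry of Pdgfra begins further upstream, at 75151322. The Pdgfra window had a GC content of 54.4% with 4 CG dinucleotides, and the Pdgfc window 50.8% with 3, against medians of 52.4% and 6 over 32851 mouse promoter windows of the same length. The windows before the 2 listed starts of Pdgfa were richer, at 66.4% and 72.4% GC with 19 and 28 CG dinucleotides, and both, unlike the printed windows, overlapped annotated exons of Pdgfa. The letters TATAAA were found on either strand of 12.4% of all windows. The letters GGGCGG, the core of an SP1 site, were found in 32.7% of them. The letters CCAAT were found in 33.8% of them. None of these was found on either strand of the printed windows. Both windows were thus near the median in base composition. The values of this study are per gene and do not show which start was used.

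Pdgfra, which encodes the alpha receptor, had the highest level per length of all members in WT and stood below Pdgfa, Pdgfc and Pdgfrb in the libraries labelled KO. The gene spans 75151322 to 75198206 on chromosome 5. The WT replicates 1 to 3 held 19752, 20181 and 20105 normalized read counts of Pdgfra, and the KO replicates 1 and 2 held 1185 and 1324. The WT libraries lay within a narrow band, and both libraries labelled KO were far below it, with no overlap. The WT mean of 20013 ± 229 (SD, n = 3) was 16.0 times the KO mean of 1255 ± 98.6 (SD, n = 2), and the log2 fold change was -4.0 (standard error 0.0436). This placed Pdgfra at rank 55 among the falls of the 13062 genes, 93 of which were at least 10-fold lower. Per length, its level went from 80.4 ± 0.852 to 5.02 ± 0.349 RPKM (reads per kilobase of transcript, scaled for library depth). In WT 93.8% of the genes tested had a lower RPKM, and in the libraries labelled KO 37.4%. The transcript was not lost: 1076 and 1191 reads were recovered in KO replicates 1 and 2, against 22347 in WT replicate 1. Exons of Pdgfra share 456 bases with the antisense gene Gm42802 and 166 bases with Gm42803 on the same opposite strand in GENCODE M21, and reads of these could not be told apart from those of Pdgfra. In bulk RNA, fewer cells with the transcript and less transcript per cell cannot be told apart.

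Pdgfrb, for the beta receptor (chromosome 18, 61045127 to 61085067), was also lower, by much less. Its normalized read counts were 6634, 6363 and 6634 in the WT libraries and 4466 and 4844 in the libraries labelled KO. All WT libraries were above both others, with means of 6544 ± 157 (SD, n = 3) and 4655 ± 268 (SD, n = 2). The 1.41-fold difference came to a log2 fold change of -0.49 (standard error 0.0423, limma, adjusted p = 1.3e-09). The 45 tested genes with starts within 5 Mb of it differed by a median of 0.21 on the log2 scale, so Pdgfrb went against its neighbours. With that local median removed, its log2 fold change was -0.70.

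The balance of the receptors was turned over. Pdgfra stood at 2.39, 2.55 and 2.44 times the RPKM of Pdgfrb in the WT libraries, and at 0.213 and 0.220 times in those labelled KO. The share of Pdgfra in the summed RPKM of the 2 receptors was 71.1% ± 0.669 (SD, n = 3) in WT and 17.8% ± 0.310 (SD, n = 2) in the libraries labelled KO. The sum itself went from 113.1 ± 0.770 to 28.2 ± 1.47 RPKM. Since Pdgfra chose the family, these ratios carry no test.

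Pdgfrl encodes a protein that resembles the outer part of the receptors and has no kinase domain. Its normalized read counts were 133, 108 and 105 in the WT libraries and 168 and 141 in the libraries labelled KO. Its groups did not overlap, but the gap between WT replicate 1 and KO replicate 2 was smaller than the spread within either group. At 115 ± 15.8 (SD, n = 3) and 155 ± 19.3 (SD, n = 2), the log2 fold change was 0.43 (standard error 0.161, limma, adjusted p = 0.0253). The call did not hold without WT replicate 2 (limma, adjusted p = 0.0822), WT replicate 3 (0.0788) or KO replicate 1 (0.190), nor in the authors' deposited table (0.0912). Pdgfrl lies on chromosome 8 (40926233 to 40990782), where the 21 tested genes within 5 Mb had a median of 0.50 on the same scale. With that median removed it stood at -0.073 (limma, adjusted p = 0.729).

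**Figure D1:**
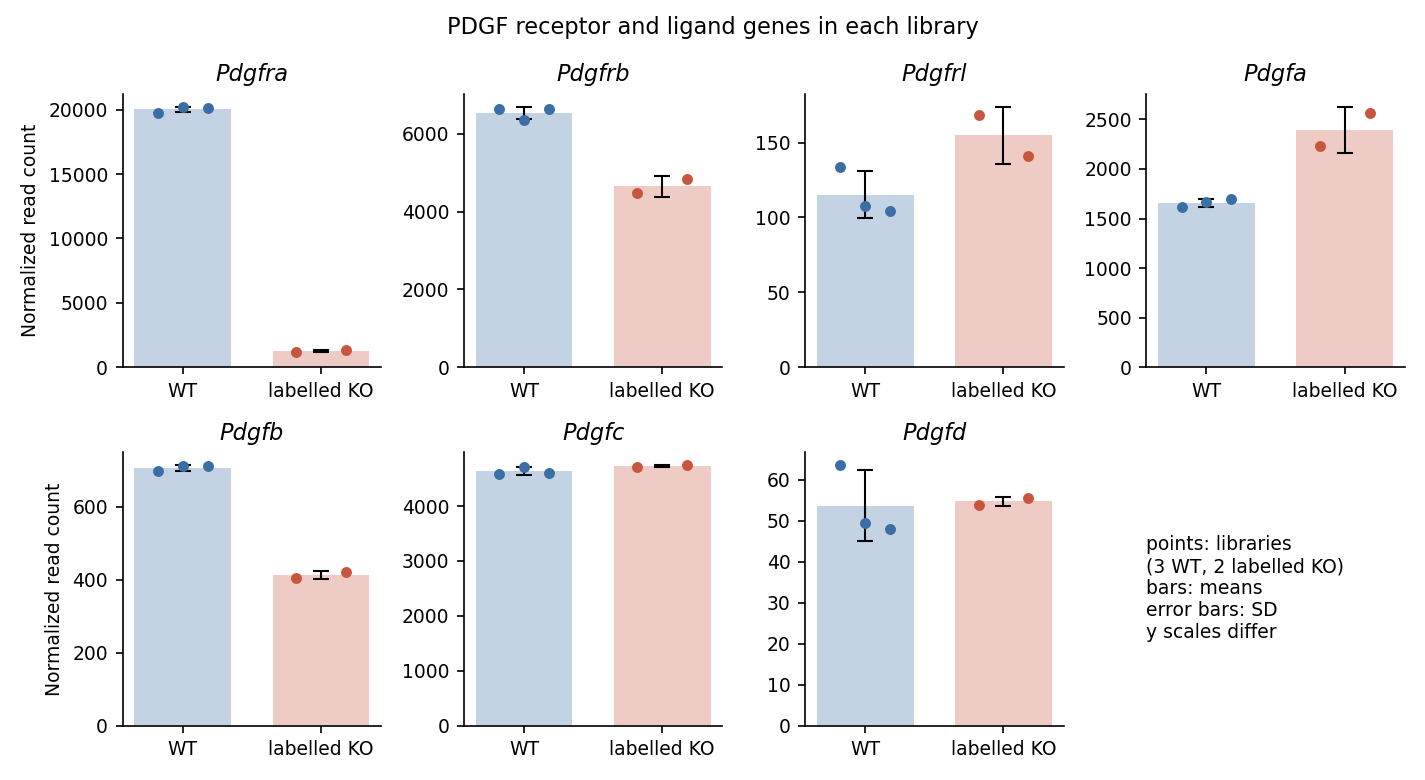
Normalized read counts (vertical axes, each from 0 and on its own scale) of the 7 PDGF genes in 3 WT libraries and 2 libraries labelled KO; points are libraries, bars are means and error bars are SD. Pdgfra drops from about 20013 to 1255, Pdgfrb and Pdgfb are lower by less, Pdgfa is higher, and the groups overlap for Pdgfc and Pdgfd.

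Among the ligands, Pdgfa was higher and Pdgfb lower in the libraries labelled KO, and no difference was found for Pdgfc and Pdgfd. Pdgfa, whose chain binds the alpha receptor only (chromosome 5, 138976014 to 139000792), had normalized read counts of 1616, 1667 and 1692 in the WT libraries and of 2228 and 2561 in the libraries labelled KO. Both libraries labelled KO were above every WT library, and they differed from each other more than the WT libraries did. The mean rose 1.44-fold, from 1658 ± 38.9 (SD, n = 3) to 2394 ± 236 (SD, n = 2), and the log2 fold change was 0.53 (standard error 0.0562, limma, adjusted p = 4.2e-08). It held when each library was left out in turn, at log2 fold changes from 0.43 to 0.63. Exons of Pdgfa share 813 bases with the antisense gene 6330403L08Rik in GENCODE M21, and without a stated strand setting reads of the pair cannot be told apart. Exons of Pdgfc share 147 bases with the antisense gene Gm16000 in the same way.

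Pdgfb encodes the chain that binds both receptors (chromosome 15, 79995865 to 80024614). Its normalized read counts were 698, 712 and 711 in the WT libraries and 405 and 421 in the libraries labelled KO. The groups were tight and well apart, at 707 ± 7.85 (SD, n = 3) and 413 ± 11.5 (SD, n = 2). This 1.71-fold difference gave a log2 fold change of -0.77 (standard error 0.0763, limma, adjusted p = 1.2e-08).

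Pdgfc, for a CUB-domain ligand of the alpha receptor (chromosome 3, 81036416 to 81214040), had normalized read counts of 4587, 4721 and 4601 in the WT libraries and 4720 and 4743 in the libraries labelled KO. The groups overlapped, since WT replicate 2 was as high as KO replicate 1. The log2 fold change was 0.029, with a 95% interval from -0.052 to 0.11 (limma, adjusted p = 0.525). At this depth, with 4265 to 5190 reads a library, a change of the size seen for Pdgfa or Pdgfb lay outside the interval.

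Pdgfd, for a CUB-domain ligand of the beta receptor (chromosome 9, 6168363 to 6534284), was the scarcest member. Its normalized read counts were 63.6, 49.5 and 48.1 in the WT libraries and 54.0 and 55.6 in the libraries labelled KO, so the KO values lay inside the WT range. With 49 to 72 reads a library the log2 fold change of 0.038 had a 95% interval from -0.43 to 0.51 (limma, adjusted p = 0.892). Differences inside these bounds were compatible with the Pdgfd values at this depth.

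Of the 6 members other than Pdgfra, 2 were called higher and 2 lower, against the 65.3% of all genes tested that were called. This count is near the share for all genes. Without Pdgfra, the groups of 4 of the 6 members did not overlap, 2 higher and 2 lower, against 75.4% of all genes (37.8% higher and 37.6% lower).

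Per length, Pdgfra, Pdgfa, Pdgfc, Pdgfrb, Pdgfb, Pdgfrl and Pdgfd followed each other from high to low in each of the 3 WT libraries. In both libraries labelled KO, Pdgfa, Pdgfc and Pdgfrb came before Pdgfra, and the rest kept their order. In WT the levels were 44.1 ± 1.02 RPKM for Pdgfa, 35.7 ± 0.520 for Pdgfc, 32.7 ± 0.823 for Pdgfrb, 6.51 ± 0.0673 for Pdgfb, 2.04 ± 0.281 for Pdgfrl and 0.810 ± 0.130 for Pdgfd (SD, n = 3). No 2 neighbours in the WT order overlapped. In the libraries labelled KO the levels were 63.4 ± 5.66 RPKM for Pdgfa, 36.3 ± 0.207 for Pdgfc, 23.2 ± 1.12 for Pdgfrb, 5.02 ± 0.349 for Pdgfra, 3.79 ± 0.0704 for Pdgfb, 2.72 ± 0.364 for Pdgfrl and 0.823 ± 0.00991 for Pdgfd (SD, n = 2). Here Pdgfra and Pdgfb were neighbours and did not overlap either.

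The A chain gene took a larger share of the ligand transcripts in the libraries labelled KO. Pdgfa made up 50.6% ± 0.611 (SD, n = 3) of the summed ligand RPKM in WT and 60.7% ± 2.21 (SD, n = 2) in the libraries labelled KO, Pdgfc 41.0% ± 0.505 and 34.9% ± 2.05, and Pdgfb 7.47% ± 0.0256 and 3.63% ± 0.125. The Pdgfa to Pdgfb ratio of RPKM values was 6.69, 6.76 and 6.87 in the WT libraries and 15.9 and 17.6 in the libraries labelled KO. The summed ligand RPKM was 0.770 ± 0.00897 times the sum of the 2 receptors in WT and 3.70 ± 0.00337 times in the libraries labelled KO. The receptor sum went from 113.1 to 28.2 RPKM, mostly through Pdgfra (80.4 to 5.02 RPKM), which chose the family. The ligand sum itself was 87.1 ± 1.19 RPKM in WT and 104.3 ± 5.53 RPKM in the libraries labelled KO. These are shares of transcript levels and are given as descriptions.

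**Figure D2:**
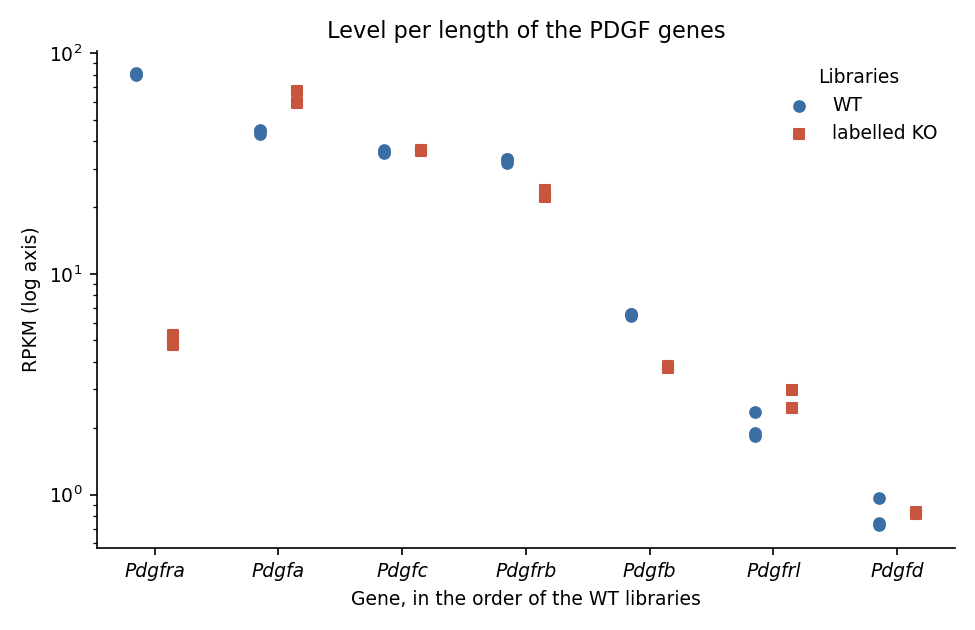
Level per length (RPKM, log axis) of each PDGF gene in the 3 WT libraries (circles) and the 2 libraries labelled KO (squares), in the order of the WT libraries. Pdgfra moves from the top, at 80.4 RPKM, to 5.02 RPKM, between Pdgfrb and Pdgfb, while the other genes keep their order.

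Replicate spread was close to counting error for some members and above it for others. In WT the coefficient of variation of Pdgfa was 2.35%, where its read number alone gives 2.37%. In the libraries labelled KO it was 9.84% for Pdgfa, 7.86% for Pdgfra and 5.75% for Pdgfrb, where read numbers give 2.15%, 2.97% and 1.54%. All 3 genes were higher in KO replicate 2 than in KO replicate 1. With 2 libraries this spread is poorly known.

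Proteases, co-receptors and binding proteins of PDGFs came next. Of the 11 genes listed, 10 were tested, and 1 of these, St14, reached 10 normalized read counts only in the libraries labelled KO and is left out. Of the other 9, 5 were higher with the KO label and 4 lower, where 32.6% of all genes were called in each direction. Their median log2 fold change was 0.16 (0.54 with St14), against -0.0023 over all genes tested. Plat, for tissue plasminogen activator, which can cut the C chain, had normalized read counts of 1579, 1462 and 1437 in the WT libraries and 3039 and 2964 in the libraries labelled KO (2.01-fold higher, limma adjusted p = 2.3e-13). The 54 tested genes near Plat on chromosome 8 had a median of 0.46 on the log2 scale, and with it removed the log2 fold change of Plat went from 1.01 to 0.54. Cspg4, for the proteoglycan NG2, a binding partner of PDGF-AA, went from 4601 ± 127 to 9356 ± 469 (2.03-fold, limma adjusted p = 4.1e-15), and the convertase gene Pcsk6 was 2.21-fold higher (limma, adjusted p = 1.6e-05). Lrp1, for an endocytic co-receptor of the beta receptor, was 1.72-fold higher in WT, at 92577 ± 1238 against 53713 ± 4368 (limma, adjusted p = 1.9e-12). Its log2 fold change of -0.79 became -0.47 with the local median of -0.32 removed. Plau, for urokinase, which can cut the D chain, and Sparc, which binds B chains, were lower, by -0.34 and -0.30 on the log2 scale (limma, adjusted p = 5.7e-07 and 3.1e-07).

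Of the 34 adaptors, kinases and other effectors that act below the receptors, 11 were higher and 15 lower (26 called of 34, where 65.3% of all genes were called), with a median log2 fold change of -0.070. Stat5a, a transcription factor gene, had the largest fall, with 790.1 ± 35.1 normalized read counts in WT (SD, n = 3) and 200.2 ± 20.5 in the others (SD, n = 2) (3.95-fold higher in WT, limma adjusted p = 3.4e-14). Among regulatory subunits of phosphoinositide 3-kinase, Pik3r1 was 1.85-fold higher in WT and Pik3r2 1.69-fold higher in the libraries labelled KO (limma, adjusted p = 1.2e-13 and 4.8e-12). Pik3r2 lies on chromosome 8 among 110 tested genes with a median log2 fold change of 0.55, and without that median its log2 fold change went from 0.76 to 0.21. Fyn, of the SRC kinases, rose by 0.74 and Hras1, a RAS gene, by 0.55 on the log2 scale (limma, adjusted p = 3.4e-10 and 9.3e-10). Hras1 was at 0.25 with the local median removed. Vav3, an exchange factor gene, fell by 0.66 on the log2 scale (limma, adjusted p = 6.0e-05).

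Of 14 genes that limit receptor signalling, 7 were lower and 1 higher, with a median log2 fold change of -0.12. These 8 calls of 14 stand against 65.3% called over all genes, with 32.6% in each direction. Spry2, a feedback inhibitor of the RAS pathway, had normalized read counts of 4819, 5092 and 4932 in the WT libraries and 2078 and 2116 in the libraries labelled KO, a log2 fold change of -1.24 (limma, adjusted p = 2.2e-16). Socs3, for an inhibitor of cytokine signalling, and Dusp1, for a phosphatase of MAP kinases, had log2 fold changes of -0.57 and -0.31 (limma, adjusted p = 8.4e-07 and 0.000586), which became -0.22 and -0.65 with their local medians removed. Dok1, an adaptor gene, was the one called higher, at a log2 fold change of 0.13 (limma, adjusted p = 0.0185). Its call was lost without WT replicate 1 or KO replicate 2, and its sign turned to -0.23 with the local median removed.

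Of 15 genes that PDGF is known to induce in fibroblasts, 6 were higher and 6 lower, as all genes split evenly too (32.6% in each direction), and the median log2 fold change was 0.058. Ccl2, a chemokine gene first found as a PDGF-induced gene, had normalized read counts of 2655, 2557 and 2744 in the WT libraries and 793 and 687 in the libraries labelled KO (3.58-fold higher in WT, limma adjusted p = 9.0e-17). The immediate early genes Egr3 and Egr2 were 3.33-fold and 1.77-fold higher in WT (limma, adjusted p = 3.0e-14 and 1.2e-06). Srf, for the factor that drives serum response elements, Myc and Fos were higher in the libraries labelled KO, at log2 fold changes of 0.84, 0.31 and 1.02 (limma, adjusted p = 3.9e-14, 2.0e-06 and 0.000674). Srf stood at 0.52 with the local median removed. Fos was scarce, at 38.6 ± 6.0 against 78.6 ± 5.72 normalized read counts.

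Relatives of the PDGFs and their receptors were measured too. Of 13 listed, 11 were tested. Csf1r, Kdr and Pgf among them passed the filter on low values only through the libraries labelled KO, where they were high, and are not counted. Of the other 8, 3 were higher and 4 lower, against 65.3% called over all genes, with a median log2 fold change of 0.049. Flt1, a receptor gene for vascular endothelial growth factors (VEGFs), had normalized read counts of 1145, 1178 and 1199.9 in the WT libraries and 3163 and 3367 in the libraries labelled KO (2.78-fold higher, limma adjusted p = 2.7e-16). Kitl, for the ligand of KIT, was 2.01-fold higher in WT (limma, adjusted p = 4.2e-12), and Figf, for VEGF-D, 1.77-fold (limma, adjusted p = 6.0e-09). Vegfc was lower, at a log2 fold change of -0.47 (limma, adjusted p = 0.000114), and at -1.18 with the local median of its 10 neighbours removed. Csf1, for a macrophage growth factor, was slightly lower at -0.14 (limma, adjusted p = 0.00206). Vegfa and Vegfb were higher, at 0.24 and 0.44 (limma, adjusted p = 8.1e-05 and 1.1e-06). With local medians removed, their calls were lost, at -0.094 and 0.12. Csf1r, next to Pdgfrb on chromosome 18, was scarce, at 3.54, 8.90 and 12.0 normalized read counts in WT and 27.5 and 37.8 in the libraries labelled KO.

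**Figure D3:**
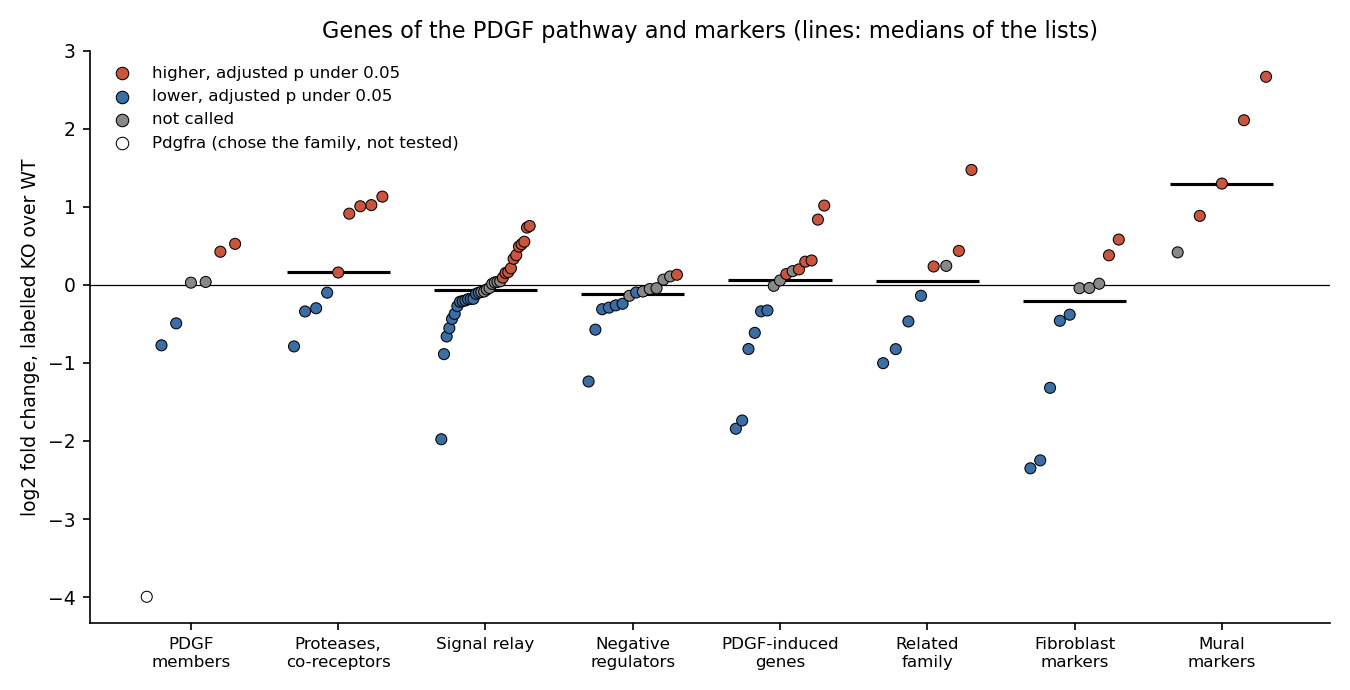
Log2 fold change (labelled KO over WT, vertical axis) of each tested gene of the PDGF family and of 7 gene lists; colours give the call at an adjusted p under 0.05, horizontal lines are list medians, and Pdgfra (open circle) was not tested. Pdgfra, at -4.0, lies below every gene of the lists. Genes that passed the filter on low values through 1 group alone (St14, Csf1r, Kdr and Pgf) are not drawn.

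Around Pdgfra on chromosome 5, neighbouring genes differed in both directions. Of the 11 other genes that start within 1 Mb, 7 were tested. Leaving out Kdr, 2 were higher and 4 lower, against 65.3% called over all genes. All 4 lower genes lie on the side before its start, but so does every counted gene except Srd5a3. Lnx1, a ubiquitin ligase gene 558.9 kb away, had a log2 fold change of -1.24, Scfd2, 946.5 kb away, of -0.91, Fip1l1, an RNA processing gene 615.9 kb away, of -0.61 and Chic2, 146.3 kb away, of -0.28 (limma, adjusted p = 1.9e-11, 6.1e-11, 2.8e-11 and 0.000581). Rasl11b, the gene farthest on that side, was higher, at 21.7 ± 6.05 (SD, n = 3) against 48.7 ± 8.16 (SD, n = 2) normalized read counts (limma, adjusted p = 0.00247). On the other side lie Kit and Kdr, receptor kinase genes of the same ancestry as Pdgfra. Kit was at 0 in 4 libraries and at 3.30 normalized read counts in KO replicate 1. Kdr, for the main VEGF receptor of endothelium, was at 0, 2.97 and 1.85 in the WT libraries and at 40.7 and 35.6 in the libraries labelled KO, and no test is given since it passed the filter through the latter alone. Srd5a3, a reductase gene 989.0 kb away, rose by 0.46 on the log2 scale (limma, adjusted p = 4.4e-06). Over the wider span of 5 Mb to each side, the median over 36 tested genes was 0.061, and with it removed Pdgfra stood at -4.06.

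**Figure D4:**
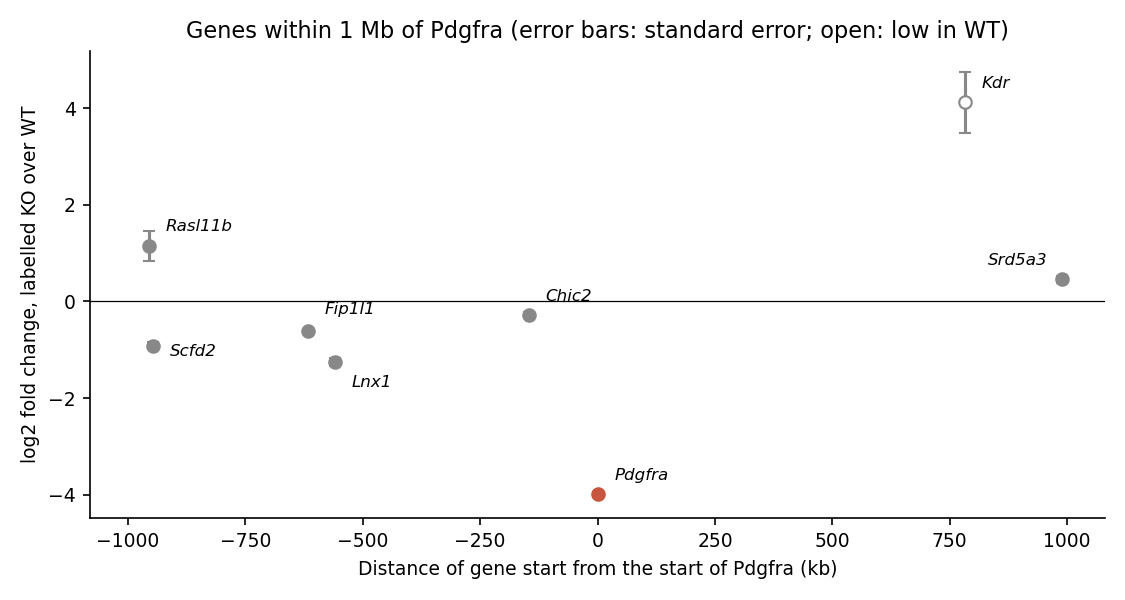
Log2 fold change (labelled KO over WT) with its standard error against the distance in kb of each tested gene's start from the start of Pdgfra. Pdgfra, at -4.0, is far below its neighbours, Lnx1, Scfd2, Fip1l1 and Chic2 are lower, and Kdr (open circle), which had almost no reads in WT, is drawn as a description.

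The genes whose profiles over the 5 libraries were nearest to that of Pdgfra were chosen by the Euclidean distance between centred log2(value + 1) profiles. They were Cnnm1, for a membrane protein of the cyclin M family (distance 0.150), Pgcp, a carboxypeptidase gene (0.184), Slitrk5, for a neuronal membrane protein (0.191), Notum, whose product inactivates WNT proteins (0.310), and Bmp6, for a bone morphogenetic protein (0.360). The median distance over all genes tested was 4.38. These 5 were picked as the smallest distances, so lying below that median was fixed in advance. With a median log2 fold change of -0.0023 over all genes, the 4.38 mostly reflects the step of Pdgfra itself. Notum had normalized read counts of 2569, 2447 and 2599.6 in the WT libraries and 164 and 138 in the libraries labelled KO. The likeness rests almost wholly on the step between the groups, since 5 libraries in 2 groups leave little else to match.

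Of 12 fibroblast and mesenchymal markers, 10 were tested, and 2 were higher and 5 lower, where 32.6% of all genes were called in each direction, with a median log2 fold change of -0.21. Their summed level was 5606 to 5801 RPKM in WT and 4893 to 5010 RPKM in the libraries labelled KO. Most of that sum came from Vim (2516 RPKM in WT and 1924 RPKM in the libraries labelled KO) and S100a4 (1403 and 1026 RPKM). Col1a1 (472 and 612 RPKM) and Col1a2 (495 and 738 RPKM) went the other way. The collagen genes Col1a2 and Col1a1 were 1.5-fold and 1.30-fold higher (limma, adjusted p = 1.4e-10 and 1.4e-06), and with the local median removed Col1a2 was at a log2 fold change of 0.044 with no call. Col3a1 was 4.75-fold and Dcn, for the proteoglycan decorin, 5.12-fold higher in WT (limma, adjusted p = 9.6e-22 and 2.5e-10). S100a4 was lower at -0.46 (limma, adjusted p = 9.9e-06). Its value was -0.25 without KO replicate 1 and -0.67 without KO replicate 2. Thy1 and Fn1 gave log2 fold changes of -0.042 and -0.039 and were not called. Vim, at 170475 ± 2636 (SD, n = 3) and 130905 ± 2771 (SD, n = 2) normalized read counts, was lower (limma, adjusted p = 1.0e-07). Vim, collagens and Fn1 were thus present in all libraries, as in fibroblasts, whereas Lum and Fap were almost absent in both groups.

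Of 10 pericyte and smooth muscle markers, 5 were tested, 4 were higher and none lower (32.6% of all genes were called higher), and their summed level was 296 to 304 RPKM in WT and 817 to 853 RPKM in the libraries labelled KO. Most of that sum came from Acta2 (247 RPKM in WT and 606 RPKM in the libraries labelled KO) and Tagln (51.8 and 223 RPKM). Mcam was 6.35-fold, Tagln 4.32-fold and Acta2 2.46-fold higher (limma, adjusted p = 3.0e-13, 5.7e-21 and 1.1e-17), with Acta2 at a log2 fold change of 0.88 in place of 1.30 once the local median was removed. The defining pericyte markers Abcc9, Rgs5 and Kcnj8, and the muscle filament gene Des, had at most a few reads in any library, and Abcc9 was at 0 in all 5. Oligodendrocyte precursors, which also carry Pdgfra, were looked for by their markers, and Olig1, Olig2, Sox10 and Nkx2-2 were at 0 in all libraries. The summed RPKM of endothelial markers was 8.94 to 10.5 in WT and 4.47 to 4.74 in the libraries labelled KO, with most of the reads from Egfl7 and Pecam1 and Cldn5 near 0. Macrophage markers summed to 1.84 to 2.05 RPKM in WT and 1.35 to 1.56 in the libraries labelled KO, and epithelial markers to 0.0978 to 0.164 and 0.419 to 0.494. Those epithelial sums rested on few reads, at 8.90 to 13.0 normalized read counts in WT and 34.1 to 37.8 in the libraries labelled KO. The 1 epithelial marker tested reached 10 normalized read counts only in the libraries labelled KO. The part of other cell types in the Pdgfra difference was not tested.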

How the data were processed

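RNA of 5 samples (3 WT, 2 KO, grouped by title) was sequenced on a NextSeq from Nextera XT libraries (labels' protocols). STAR, DESeq2 and mm10 appear, without versions, in the submitters' processing notes. How reads were counted, the annotation and the strand setting were not given in the sources used here. Signal values deposited by the authors are read counts that they divided by one size factor for each library, since 100% of values in each library were whole multiples of a step within 0.1 reads. The authors also deposited RPKM values, log2 fold changes with standard errors, a Wald score, and p-values and adjusted p-values, per the file headers. Gene lengths behind the RPKM are not stated. Count tests left out WT replicate 2, whose step of 0.989 is close to that of raw reads. Its values were not whole numbers, so it was scaled like the others, and its recovered reads are used elsewhere here.

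As the values were normalized, limma 3.58.1 (R 4.3.3, trended prior, genotype as factor, two-sided) was fitted to log2(value + 1) of the 13062 genes that reached 10 in 2 or more libraries, after a test on simulated data, with Benjamini-Hochberg adjustment over all of them. Fold changes given as "-fold" are ratios of mean normalized counts, and log2 fold changes use log2(value + 1), so those of low genes are too small. Positions came from RefSeq GRCm38.p6 for 23058 genes. The local median of a gene is the median log2 fold change of the tested genes that start within 5 Mb. Members and lists were chosen with earlier results of these data known. Named genes are the members, Sirt3, the 5 nearest profiles, the tested genes within 1 Mb of Pdgfra, up to 3 largest rises and 3 largest falls per list among called genes with a mean of 50 or more, and the relatives Kit, Csf1r, Flt1, Kdr, Vegfa and Csf1. Tested genes that reached 10 in fewer than 2 libraries of the lower group were left out of list counts, a choice made after their values were seen. The shares over all 13062 genes keep such genes, so list counts and these shares are over unlike sets. Other markers were named after their values were seen, and 1 listed marker is not reported here. Alternatives were other pseudocounts, filters, scalings, RPKM, left-out libraries, a replicate block, edgeR 4.0.16 and DESeq2 1.42.0 on recovered reads of 4 libraries, the authors' comparison, removal of the local median and a stricter threshold.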

Additional observations from a re-analysis of the deposited data

How the results depend on the processing

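The calls of Pdgfa, Pdgfb and Pdgfrb, and the missing calls of Pdgfc and Pdgfd, were the same under every alternative run. For Pdgfra the log2 fold change of -4.0 ranged from -3.92 (without KO replicate 1) to -4.08 (without KO replicate 2). The Pdgfrl call was lost with edgeR (0.38, adjusted p = 0.0702) and DESeq2 (0.38, 0.199) on recovered reads, which left out WT replicate 2. The limma fit without that library lost it too (0.38, adjusted p = 0.0822). The Pdgfrl value of 0.43 also lost its call with no filter (0.43, adjusted p = 0.0633), in the authors' deposited comparison (0.39, 0.0912), and at an adjusted p under 0.01 (0.43, 0.0253). It turned to -0.073 (0.729) with the local median removed, which subtracts 0.50, and ranged from 0.30 to 0.55 when single libraries were left out. Of the named genes, Dok1 (-0.23) and Vegfa (-0.094) also changed sign with the local median removed. The single negative regulator called higher was lost with DESeq2 (0), with the local median removed (0), at an adjusted p under 0.01 (0) and without single libraries (0 to 1). With a mean of 50 or more, 3 relatives and 1 neighbour of Pdgfra were called higher (6 and 3 with the scarce genes that this filter leaves out). Over all genes, edgeR without WT replicate 2 called 4147 higher and 3956 lower. Replicate numbers 1 and 2 occur in both groups, but no label says that they pair the libraries, and deviations of same-numbered libraries were uncorrelated (r = -0.0098 and -0.0050). With the replicate block, 3958 genes were higher and 3947 lower, Pdgfa, Pdgfb and Pdgfrb kept their calls, and Pdgfrl stood at 0.36 (adjusted p = 0.0757). Leaving out a KO library assumes that the lone one varies like WT. Depth limits Pdgfd, with 49 to 72 reads a library, and Pdgfrl.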
